A study of Mus musculus with 5 samples.

Results

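The respiratory chain genes of the mouse were followed across cell classes and segments of the intestine. Members were every gene whose symbol starts with mt- or with Nduf, Uqcr, Atp5 or Cox4 to Cox8, which gave 103 of the 32285 genes in the matrices. Of these, 13 are encoded in the mitochondrial genome and 90 in the nucleus. The nuclear encoded members comprise 47 of complex I, among them 8 assembly factors, 8 of complex III, 18 of complex IV and 17 of complex V. Ndufa4 counts under complex I by its symbol although it is known as a subunit of complex IV, and Ndufb1-ps carries a pseudogene symbol. The rule leaves out complex II and also Cyc1, the cytochrome c1 gene of complex III. Cox8c, a complex IV isoform gene, had 0 UMIs, and the other 102 members had at least 1.

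Messenger RNA was counted by single-cell droplet sequencing (10x Genomics) in 5 mouse libraries, which stand for duodenum, jejunum, ileum, colon and rectum. According to the labels they hold epithelium, mesenchyme and immune cells, taken from a sort that kept what propidium iodide, which stains cells with leaky membranes, did not stain. No treatment, genotype, strain, age, sex or number of animals was given, so the libraries may or may not come from separate animals, and p-values below measure only the spread between these 5 libraries. The study concerned stromal cells that express Gnai1 and their bearing on goblet and Paneth cells. All barcodes with at least 300 genes were used, 15319 of 16535, with no limit on mitochondrial UMIs. They held 41236131 to 64973073 UMIs (unique molecular identifiers, each a counted transcript) per library, and any 2 libraries shared 0 to 5 barcode sequences.

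Most ATP of an aerobic cell is made on the inner mitochondrial membrane. Complex I takes electrons from NADH, complex III passes them to cytochrome c, complex IV hands them to oxygen, and complex V, the ATP synthase, uses the proton gradient that results. Each of these complexes joins a few subunits made inside the mitochondrion from its own genome to many subunits encoded in the nucleus and imported. Some nuclear subunits come as isoforms of different tissues, such as Cox7a1 and Cox6a2, known from heart and skeletal muscle. Along the crypt to surface axis of the gut, dividing cells give rise to absorptive cells that live from oxidation of fuels and drive much of the uptake by active transport.

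Control regions were read for 4 nuclear encoded members that return below. Cox7a1 and Ndufa4 stood apart from the other members between cell classes or segments, whereas Cox6a1 and Uqcr11 rose with most members in epithelial cells and hold motif matches. The 4 were picked after their values and matches had been seen. Each run is the 250 bases before the RefSeq start site on GRCm38.p6 (mm10), written 5′ to 3′ on the gene's strand, with capitals for matches to the motif of NRF1 (GCGC, any base, then TGCGC) or of ETS factors such as GABP (CCGGAAG), both known activators of respiratory genes, on either strand. Cox7a1 lies at chr7:30183921-30184170 on the plus strand. Ndufa4 lies at chr6:11907451-11907700, Cox6a1 at chr5:115348959-115349208 and Uqcr11 at chr10:80406822-80407071, all on the minus strand.
Cox7a1: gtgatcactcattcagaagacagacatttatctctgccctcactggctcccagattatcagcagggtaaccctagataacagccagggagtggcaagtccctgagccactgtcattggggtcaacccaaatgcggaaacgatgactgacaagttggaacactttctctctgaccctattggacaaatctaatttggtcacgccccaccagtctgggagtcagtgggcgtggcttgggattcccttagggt
Ndufa4: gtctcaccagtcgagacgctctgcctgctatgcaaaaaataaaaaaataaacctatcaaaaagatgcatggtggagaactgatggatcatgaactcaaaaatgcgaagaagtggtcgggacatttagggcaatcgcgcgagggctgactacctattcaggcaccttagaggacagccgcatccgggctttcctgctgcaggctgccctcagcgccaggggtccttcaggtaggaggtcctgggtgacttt
Cox6a1: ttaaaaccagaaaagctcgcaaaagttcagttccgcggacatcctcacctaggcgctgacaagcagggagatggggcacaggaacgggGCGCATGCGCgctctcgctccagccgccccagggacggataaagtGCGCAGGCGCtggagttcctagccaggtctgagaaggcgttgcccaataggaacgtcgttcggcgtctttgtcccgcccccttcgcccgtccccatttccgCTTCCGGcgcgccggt
Uqcr11: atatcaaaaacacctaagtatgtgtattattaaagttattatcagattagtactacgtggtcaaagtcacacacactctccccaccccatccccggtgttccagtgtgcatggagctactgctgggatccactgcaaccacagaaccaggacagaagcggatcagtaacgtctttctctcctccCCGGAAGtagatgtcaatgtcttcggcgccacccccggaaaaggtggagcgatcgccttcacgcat

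The Cox6a1 window holds NRF1 motif matches that start 162 and 117 bases before the start site and an ETS match 16 bases before it, and the Uqcr11 window an ETS match 66 bases before it. The Cox7a1 and Ndufa4 windows hold neither motif. RefSeq windows were found for 74 of the 90 nuclear encoded members, 79 windows in all, each 300 bases long with the first 50 bases of the transcript included. The NRF1 motif was in 22.8% of these windows and in 4.60% of all 32851 mouse windows. For the ETS motif the shares were 21.5% and 8.86%, and for a motif of YY1 (AANATGGC) 24.1% and 6.05%. At least 1 of the 3 was in 59.5% of the members' windows against 17.4% of all.

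Clusters were made with all members left out of the data that drew them, and named "like" a cell type from marker genes. Absorptive-like, crypt-like, goblet-like, B-like, plasma-like and T-like classes had at least 20 barcodes in all 5 libraries. Barcodes of unnamed clusters were 4.93%, 4.22%, 18.3%, 1.21% and 0.453% of the libraries from duodenum to rectum, the order of all values by segment from here on. The ileal share is mainly a cluster of 490 barcodes led by Reg3g and Fabp6. In 2 stromal clusters, 64 barcodes were led by immunoglobulin or absorptive genes and were left out of every class. Different clusters held most absorptive-like barcodes in the segments (numbers 6, 11, 30, 31 and 34), and cluster 4 held most crypt-like barcodes of the small intestine, cluster 5 of the colon and cluster 35 of the rectum. A difference between segments within these classes therefore cannot be told apart from a difference between clusters or libraries.

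Respiratory chain transcripts made up a large part of all messages counted. The mitochondrially encoded genes took 14.3%, 15.2%, 9.84%, 13.9% and 7.77% of UMIs, and the nuclear encoded members 4.04%, 3.91%, 3.14%, 4.19% and 2.81%. Since a high mitochondrial share lowers every other share, nuclear shares are given below over the UMIs without mt- genes, where they were 4.72%, 4.61%, 3.49%, 4.87% and 3.04%. Exact binomial 95% intervals, which cover counting error only, were narrow at these depths (14.31 to 14.33% for the mitochondrial share of the duodenum). Per nuclear encoded UMI there were 3.54, 3.88, 3.13, 3.32 and 2.77 mitochondrially encoded UMIs. Both shares were lowest in rectum and ileum, but with 1 library per segment there was no test between segments. In such sums over a library, fewer cells of a type and less RNA per cell cannot be told apart.

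The libraries also differed in their make-up. Epithelial clusters held 47.2%, 60.6%, 53.7%, 61.2% and 40.9% of barcodes. Barcodes with over 20% mitochondrial UMIs were 20.8%, 31.3%, 17.0%, 19.3% and 11.3% of the libraries, and 93.4 to 97.4% of them were epithelial. A filter at 20%, common in single-cell work, would therefore remove epithelial barcodes almost alone. With that filter the mitochondrial share was 9.88%, 9.91%, 6.97%, 10.4% and 6.59%.

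Epithelial cells carried the highest level of the chain in every library. Their mitochondrial share was 16.8%, 18.3%, 11.2%, 15.6% and 11.3%, against 5.19%, 4.36%, 4.58%, 4.18% and 3.38% in immune cells. The nuclear encoded share was 5.66%, 5.55%, 3.95%, 5.53% and 4.55% in epithelial and 1.68%, 1.79%, 1.78%, 1.56% and 1.26% in immune cells. Neither range overlapped. Stromal cells, present with at least 20 barcodes in every library but jejunum, had nuclear shares of 1.72%, 1.74%, 1.86% and 1.93% in duodenum, ileum, colon and rectum, and mitochondrial shares of 4.5%, 3.88%, 4.05% and 3.96%. Epithelial cells were above them in 4 of 4 libraries by both measures.

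Within the epithelium both shares were highest in absorptive-like, lower in crypt-like and lower again in goblet-like cells, in 5 of 5 libraries. The nuclear encoded share was 6.23%, 5.82%, 4.53%, 6.69% and 6.01% in absorptive-like cells. Crypt-like cells had 5.18%, 5.19%, 4.48%, 5.40% and 4.70%, and goblet-like cells 3.01%, 3.48%, 3.05%, 4.90% and 3.88%. The step from absorptive-like to crypt-like was smallest in the ileum, 4.53% (95% interval 4.51 to 4.54) against 4.48% (4.46 to 4.49). For the mitochondrial share the 2 classes did not differ beyond counting error in the ileum (12.9% in both, intervals 12.86 to 12.90 and 12.85 to 12.90), whereas elsewhere absorptive-like cells had 21.0 to 25.4% and crypt-like cells 10.3 to 12.6%. Barcodes with at most 20% mitochondrial UMIs were 353 of 454 absorptive-like and 202 of 344 crypt-like ones in the ileum. In duodenum, jejunum, colon and rectum they were 516 of 1196, 584 of 1343, 241 of 628 and 91 of 258 absorptive-like barcodes. Of crypt-like barcodes there they were 403 of 476, 132 of 166, 456 of 543 and 442 of 498. With that limit the mitochondrial share was higher in absorptive-like than in crypt-like cells in 5 of 5 libraries. The 490 ileal barcodes of the unnamed cluster led by Reg3g and Fabp6, the latter a bile acid binding protein of ileal enterocytes, had 5.50% nuclear and 16.8% mitochondrial encoded UMIs.

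**Figure D1:**
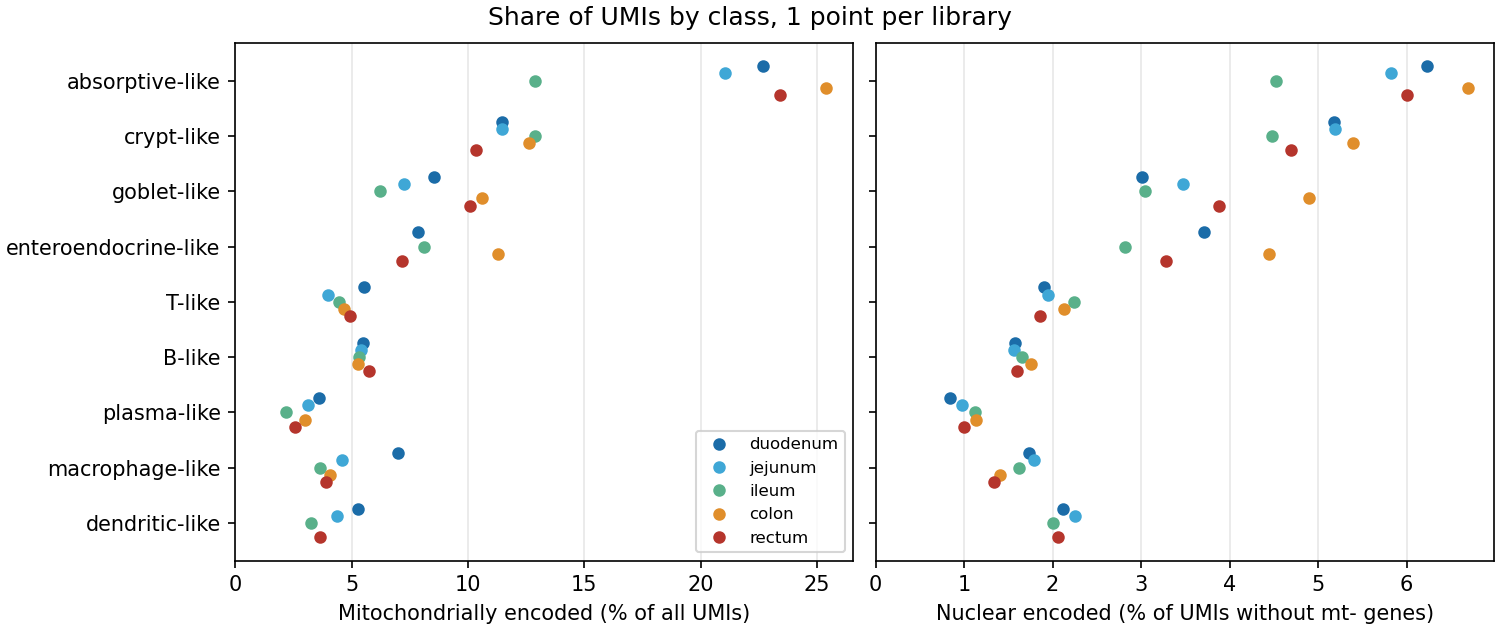
Share of UMIs from the mitochondrially encoded genes (left, % of all UMIs) and from the nuclear encoded members (right, % of UMIs without mt- genes) for 9 classes, 1 point per library with at least 20 barcodes of the class. In absorptive-like cells 4 libraries lie between 21.0 and 25.4% on the left and the ileum at 12.9%, and on the right no immune class reaches the lowest goblet-like library at 3.01%. The ileal absorptive-like point leaves out the 490 barcodes of the unnamed cluster led by Reg3g and Fabp6.

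Among immune cells the nuclear encoded share was lowest in plasma-like cells, which make antibody, with 0.844%, 0.975%, 1.13%, 1.14% and 1.0%. B-like cells had 1.57%, 1.56%, 1.65%, 1.76% and 1.60%, and T-like cells 1.90%, 1.95%, 2.24%, 2.13% and 1.85%. The order T above B above plasma held in 5 of 5 libraries. The mitochondrial share gave another order: it was above that of B-like cells (5.29 to 5.73%) in T-like cells of 1 of 5 libraries, the duodenum with 5.54% against 5.49%. Dendritic-like cells had nuclear shares of 2.0 to 2.25% in 4 libraries and macrophage-like cells 1.34 to 1.79% in 5.

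Secreted products took up much of the message in some of these classes. Immunoglobulin genes and Jchain were 68.7%, 61.6%, 60.1%, 59.6% and 63.3% of the UMIs without mt- genes in plasma-like cells. With these 376 genes left out of the total, the nuclear encoded share of plasma-like cells was 2.70%, 2.54%, 2.82%, 2.82% and 2.73%, above that of B-like cells treated the same way (1.59 to 1.78%) in 5 of 5 libraries. In 32 Paneth-like barcodes of the ileum, defensins and 3 other Paneth products were 76.4% of the UMIs without mt- genes, and the nuclear share was 0.494% with these products in the total and 2.10% without them. Goblet-like cells had 3.01 to 4.90% with 9 goblet markers counted and 3.72 to 5.39% without. The order of plasma-like and B-like cells thus depended on whether the antibody transcripts were counted in the total. With antibody genes left out of all UMIs, the mitochondrial share was 10.7%, 7.76%, 5.27%, 7.12% and 6.75% in plasma-like cells. B-like cells then had 5.57%, 5.48%, 5.39%, 5.36% and 5.83%. With the 9 goblet markers left out, goblet-like cells had 10.3%, 8.49%, 7.61%, 11.5% and 10.8%. Crypt-like cells then had 11.5%, 11.5%, 12.9%, 12.6% and 10.4%, so that goblet-like cells were above them in the rectum.

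Among absorptive-like barcodes, those rich in mitochondrial UMIs held fewer nuclear encoded chain transcripts also relative to the other nuclear messages. Absorptive-like barcodes of the duodenum with 10 to 20% mitochondrial UMIs had a nuclear share of 6.70%, those with 20 to 50% had 4.97%, and those with 50% and over had 3.33%. The same bins gave 6.34%, 4.28% and 3.36% in jejunum, 7.16%, 5.92% and 4.25% in colon and 7.01%, 4.08% and 3.38% in rectum. In ileum, 3 bins from 5 to 50% gave 4.85%, 4.42% and 3.66%. Depth and RNA make-up moved with the bins: in the duodenum the median number of genes was 5150, 2254 and 1575, and Malat1 and Neat1, RNAs kept in the nucleus, took 0.834%, 2.25% and 4.2% of UMIs without mt- genes. Transcripts of the cytosolic ribosome took 6.91%, 6.82% and 4.38%. The part of these measures in the lower nuclear share was not tested. Over all classes together the order was not general: barcodes over 20% had a lower nuclear share than the others in duodenum (4.47% against 4.74%) and jejunum (4.2% against 4.67%), but a higher one in ileum (3.59% against 3.48%), colon (5.52% against 4.81%) and rectum (3.36% against 3.04%), where the 2 sides also differ in their share of epithelial cells. In crypt-like barcodes the colon did not follow, with 5.56%, 5.72% and 5.39% in the 3 upper bins. B-like cells, nearly all under 10%, had 1.56 to 1.77% in the bin under 5% and 1.5 to 1.74% in the bin from 5 to 10%.

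**Figure D2:**
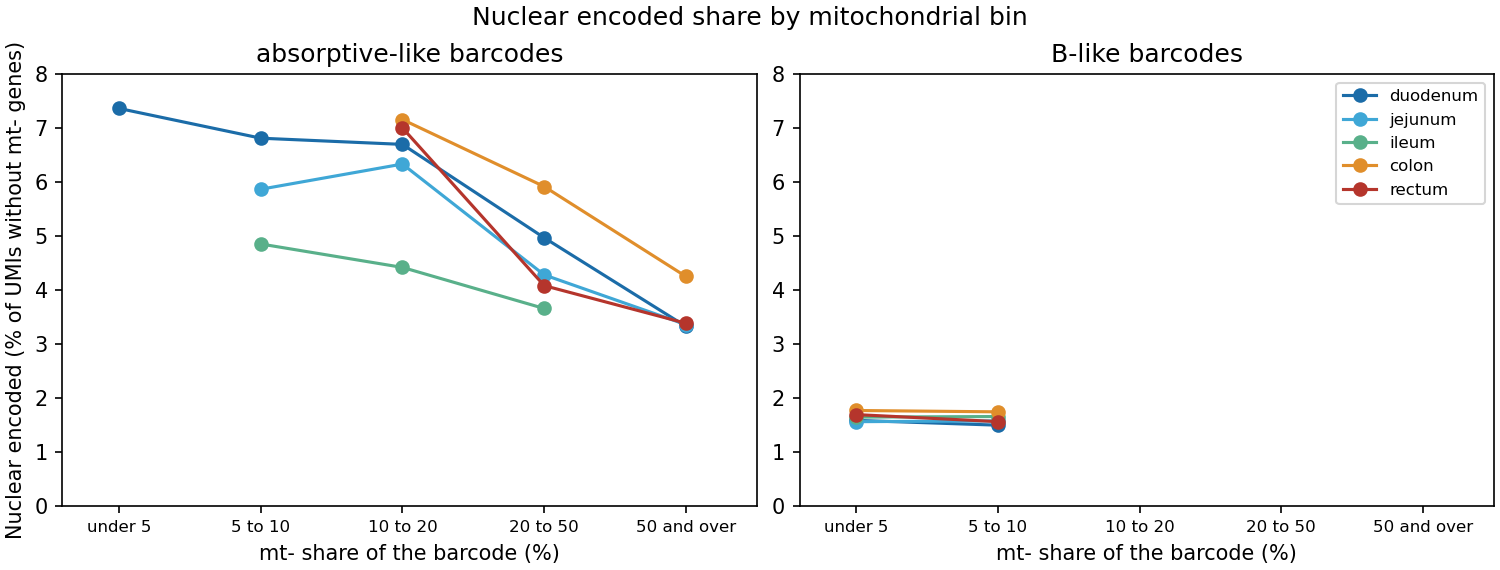
Nuclear encoded share (% of UMIs without mt- genes) of absorptive-like (left) and B-like barcodes (right) binned by their mitochondrial share, 1 line per library, bins with at least 20 barcodes. From the bin of 10 to 20% upward every absorptive-like line descends, and the B-like points stay between 1.5 and 1.77%.

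The mitochondrially encoded members were read per kilobase, since their lengths differ from 204 bases (mt-Atp8) to 1824 (mt-Nd5). Over all barcodes the level was highest for mt-Atp6, a proton channel subunit of complex V, with 39432 CPM per kilobase, where CPM is the UMI count of a gene scaled to a common library total. Then came the complex IV core genes mt-Co3, mt-Co2 and mt-Co1 with 31096, 27267 and 13557, and mt-Cytb of complex III with 10224. The complex I genes mt-Nd3, mt-Nd1, mt-Nd4, mt-Nd4l and mt-Nd2 had 7369, 5252, 5062, 4404 and 4341, mt-Atp8 of complex V had 2538, mt-Nd5 had 673 and mt-Nd6, the only member on the opposite strand of the mitochondrial genome, had 119. A UMI counts a transcript whatever its length, and as plain CPM the order differs: mt-Co1 (20945) is above mt-Co2 (18651), and mt-Nd4 (6975) is above mt-Nd3 (2564). The gene pairs mt-Atp8 and mt-Atp6, mt-Atp6 and mt-Co3, and mt-Nd4l and mt-Nd4 overlap or adjoin in position, so that the split of reads within a pair is uncertain. The genes mt-Nd5 and mt-Nd6 overlap too, but on opposite strands.

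Their proportions shifted between segments. Of mitochondrially encoded UMIs, mt-Co1 took 14.1%, 16.8%, 18.3%, 24.8% and 16.5% in absorptive-like cells, and the colon was also highest in crypt-like (18.5% against 13 to 15%) and goblet-like cells (23.5% against 17.1 to 18.1%). In B-like cells the colon was not highest (15.9%, with 17.2% in jejunum). Conversely mt-Cytb was lowest in the colon in absorptive-like cells (5.24% against 8.51 to 10.0%), as was mt-Nd3 (0.855% against 1.73 to 2.26%). In the ileum mt-Nd4l was highest, with 1.77% in crypt-like (0.788 to 1.37% elsewhere), 1.25% in B-like (0.534 to 0.811%) and 2.50% in stromal cells (1.07 to 1.29%). As each segment is 1 library, these shifts in 3 classes of the ileal library cannot be told apart from a property of that library.

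Epithelial cells were then set against immune cells gene by gene, with UMIs summed per library and edgeR's quasi-likelihood test with a library term, where the 5 libraries serve as replicates. At an adjusted p of at most 0.05, 77 of the 85 nuclear encoded members tested rose in epithelial cells and 1 fell, and all 13 mitochondrially encoded members rose, of which mt-Nd6 was not called with at most 20% mitochondrial UMIs (0.45, adjusted p 0.057). Among all 13776 genes, 31.9% rose and 33.6% fell. The median log2 fold change was 1.31 over the nuclear and 1.57 over the mitochondrially encoded members, against -0.03 over all genes. With at most 20% mitochondrial UMIs the order turned, with 1.35 over the nuclear and 1.21 over the mitochondrially encoded members. All 8 members of complex III rose, as did 42 of 46 of complex I, 16 of 17 of complex V and 11 of 14 of complex IV. The median of the nuclear encoded members was 1.58, 1.64, 1.09, 1.27 and 1.03 in the single libraries.

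Uqcr10, a small subunit of complex III, had 780, 700, 613, 1069 and 950 CPM in epithelial and 186, 206, 222, 165 and 102 in immune cells, with no overlap. Its log2 fold change was 2.09 (SE 0.18, edgeR adjusted p 6.9e-05). Uqcrc1, a core protein of the same complex, rose by 2.04 and Atp5g3, a gene of the membrane ring of complex V, by 2.01. Atp5o of the complex V stalk rose by 1.94, and Cox7b and Cox5a of complex IV by 1.87 and 1.82. Of the genes with motif matches shown above, Uqcr11 of complex III had 682 to 908 CPM in epithelial and 164 to 226 in immune cells and rose by 1.95, and Cox6a1 of complex IV had 438 to 666 against 156 to 194 CPM and rose by 1.63. The 2 other genes of the membrane ring differed: Atp5g1 rose by 1.82, but Atp5g2 was at 0.29 (edgeR adjusted p 0.10, n = 5 libraries). DESeq2 called that small rise of Atp5g2 (adjusted p 0.033).

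Cox7a1, the complex IV isoform known from muscle, was the member with the largest rise in epithelial cells. It had 248, 393, 160, 113 and 87.9 CPM there and 8.01, 5.89, 5.18, 3.40 and 2.09 in immune cells. The log2 fold change was 5.13 (SE 0.31, edgeR adjusted p 1.6e-05). By contrast Cox7a2l, a family member tied to the joining of complexes III and IV, was at 0.04 (adjusted p 0.85), with 190 to 318 CPM in epithelial and 122 to 317 in immune cells. Cox7a2, the general isoform, rose by 1.51. The 3 genes of 1 subunit family thus gave 3 different patterns.

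Genes of the chain or beside it that the symbol rule does not cover were taken from fixed lists. They took part in drawing the clusters, so their counts are a description. All 16 genes of the citric acid cycle were higher in epithelial cells (median 1.60), as were Cycs and Cyc1, the cytochromes c and c1. Of complex II, which feeds electrons from succinate, the 4 subunit genes Sdha, Sdhb, Sdhc and Sdhd were higher by 1.31, 1.62, 2.16 and 1.98, while 2 of its 4 assembly factors, Sdhaf1 and Sdhaf2, were lower (-0.81 and -0.46) and the other two passed in neither direction. The mitochondrial ribosome had 59 of 78 genes higher and 0 lower, whereas the cytosolic ribosome had 2 of 83 higher and 52 lower. Of 12 regulators, 7 were higher and 2 lower. Ppargc1a, a coactivator of mitochondrial genes, was higher by 4.73 and Esrra, a nuclear receptor partner of it, by 2.17. By contrast Nrf1, whose motif is described above, was at -0.60 and Gabpb1 at -1.15. Glycolysis had 7 of 16 genes higher and 0 lower. Among all genes tested 31.9% were higher and 33.6% lower.

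Along the crypt to surface axis the chain changed less, and the complex I assembly factors among the members moved the other way. Of 84 nuclear encoded members tested, 50 rose in absorptive-like against crypt-like cells and 8 fell, and all 13 mitochondrially encoded members rose. Among all 11957 genes 31.8% rose and 30% fell. The median log2 fold change was 0.52 for the nuclear and 1.17 for the mitochondrially encoded members, with 0.06 over all genes. With at most 20% mitochondrial UMIs the nuclear and mitochondrially encoded medians were close, 0.65 and 0.69. Malat1 and Neat1, RNAs kept in the nucleus, were both higher in absorptive-like cells too (median 1.42), and their part in the result was not tested. Scaled to library totals without mt- genes, which moved the median of all genes to -0.34, 21 nuclear encoded members rose and 11 fell, and 9 mitochondrially encoded members rose and 0 fell. Of all 11957 genes 2537 rose and 4748 fell with that scaling. At a finer clustering (Leiden resolution 2), 32 nuclear encoded members rose.

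The complex IV core genes led the mitochondrially encoded members. mt-Co1 had 32046, 35407, 23565, 62885 and 38609 CPM in absorptive-like and 14918, 16797, 16890, 23423 and 15535 in crypt-like cells. Its log2 fold change was 1.63 (SE 0.19, edgeR adjusted p 0.00056), followed by mt-Co3 with 1.52 and mt-Co2 with 1.47. The complex I gene mt-Nd2 had the smallest change, 0.81 (adjusted p 0.024), and it was called neither without duodenum, jejunum or rectum (adjusted p 0.083, 0.090 and 0.060) nor with at most 20% mitochondrial UMIs (0.096). In the ileum the median of the 13 genes was 0.33 and in the other libraries 1.07 to 1.52. The ileal absorptive-like side held 454 barcodes, without the 490 of the unnamed cluster led by Reg3g and Fabp6. At Leiden resolution 2 that side held 898 barcodes. How far the low ileal value follows from this naming, or from the barcodes over 20% mitochondrial UMIs on either side, was not tested.

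Of the 8 complex I assembly factors among the members, proteins that help to build the complex without staying in it, 6 fell in absorptive-like cells and none rose, with a median of -0.95. Ndufaf4 had 34.2, 27.2, 12.3, 30.1 and 26.9 CPM in absorptive-like and 105, 97.8, 77.1, 82.6 and 59.1 in crypt-like cells, without overlap, and fell by 1.18 on the log2 scale (SE 0.21, edgeR adjusted p 0.0032). Ndufaf6 fell by 1.70, Ndufaf2 by 1.11, Ndufaf7 by 1.05, Ndufaf1 by 0.85 and Ndufaf5 by 0.82. The fall of Ndufaf5 was not called without duodenum or jejunum (adjusted p 0.051 and 0.061). Of the 38 other complex I members tested, 20 rose and 0 fell. Complex III had 6 of 8 members higher, complex IV 11 of 13 and complex V 13 of 17.

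Among all 11957 genes tested, 31.8% were higher in absorptive-like cells and 30% lower. A list of 28 other assembly factors, for complexes I, III, IV and V, had 6 higher and 8 lower and a median of 0.13. In neither direction did that list exceed the share of all genes. Of 15 genes that read and copy the mitochondrial genome, 11 were lower in absorptive-like cells and 1 higher. Ssbp1, which binds single-stranded mitochondrial DNA, was at -1.80, the helicase gene Twnk at -1.61, Tfam, which packs and transcribes that DNA, at -1.53, and the polymerase gene Polrmt at -0.66. Polg2, of the DNA polymerase, was at 0.89. Of 78 mitochondrial ribosome genes 49 were lower and 2 higher, and of 83 cytosolic ribosome genes 82 were lower and 0 higher. The citric acid cycle had 6 of 16 genes higher and 0 lower, led by the citrate synthase gene Cs at 1.85, and glycolysis had 10 of 16 higher and 1 lower (median 1.24). Of the regulators Ppargc1a was at 2.74 and Esrra at 1.80, and Pprc1, a coactivator related to Ppargc1a, at -2.89. These lists took part in the clustering, so the values are a description.

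**Figure D3:**
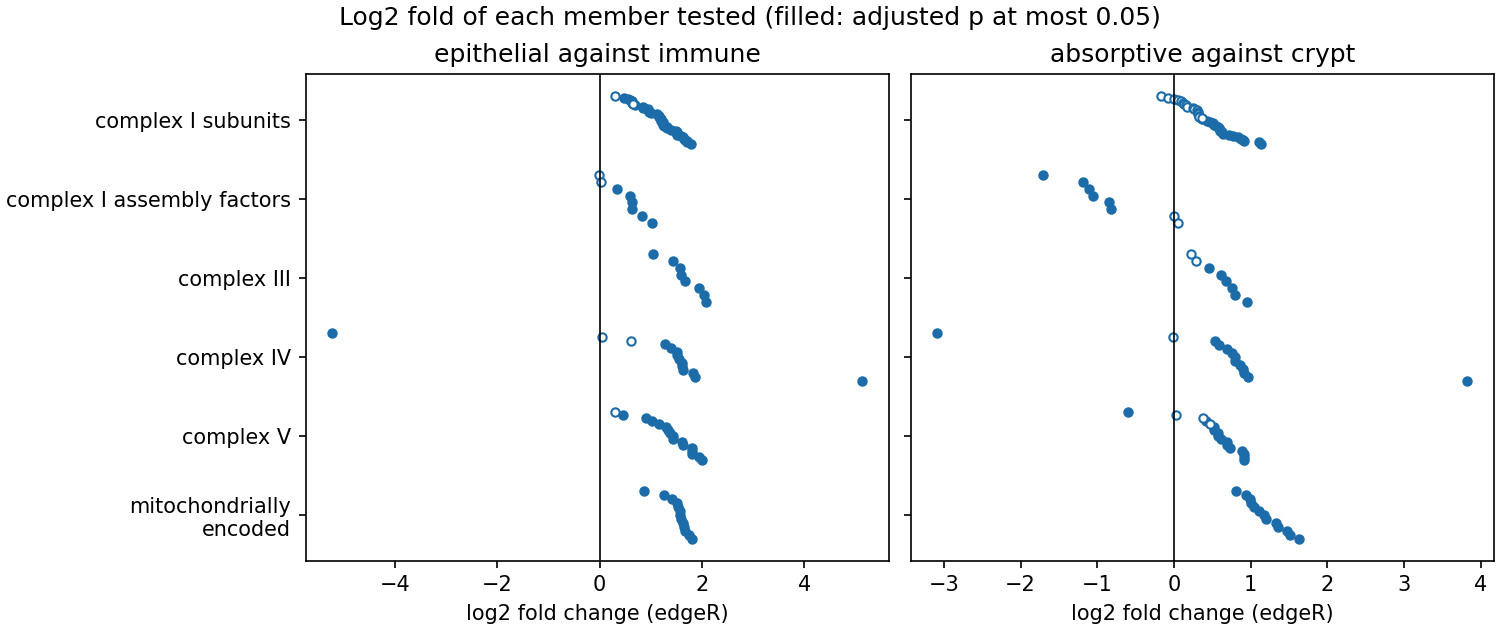
Log2 fold change of each member tested, by complex, for epithelial against immune (left) and absorptive-like against crypt-like cells (right), each point 1 gene and filled points those with an edgeR adjusted p of at most 0.05. On the right, 6 of 8 complex I assembly factors lie below 0, while the mitochondrially encoded members lie between 0.81 and 1.63, and Cox7a1 is the point at the far right of complex IV in both plots.

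Cox7a1 had 456, 516, 400, 248 and 285 CPM in absorptive-like and 39.8, 44.6, 15, 51.1 and 56.1 in crypt-like cells, and rose by 3.83 (SE 0.45, edgeR adjusted p 0.00058). The 2 ranges were far apart in all 5 libraries. A Cox7a1 UMI was found in 71.4% of 3879 absorptive-like barcodes (median 11967 UMIs), in 44.4% of crypt-like (31273) and in 53.1% of goblet-like barcodes (25576). In plasma-like barcodes, deep as they are (28053), the share was 4.31%, and in B-like barcodes (3273.5) 1.44%; shares at that level are read here as background. Stromal cells had 4.07 to 7.91 CPM, and their log2 fold change against immune cells was -0.03 (adjusted p 0.98). Within stromal cells the part led by the smooth muscle genes Actg2, Cnn1 and Myh11 had 23.2 CPM, from 9 UMIs in 8 of 54 barcodes.

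Atp5g2 was the only member of complex V that fell in absorptive-like cells, by 0.60 (SE 0.16, edgeR adjusted p 0.015). It had 308, 307, 232, 423 and 400 CPM there and 734, 723, 686, 719 and 776 in crypt-like cells, without overlap, although with at most 20% mitochondrial UMIs the adjusted p was 0.067. Its sister gene Atp5g3, for the same ring protein, rose by 0.91, and Atp5g1 was at 0.03 (adjusted p 0.89). Cox7a2l was at -0.02 (adjusted p 0.92) and at -0.41 (adjusted p 0.019) under library totals without mt- genes.

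Ndufa4 was the member with the widest gap between small and large intestine. In absorptive-like cells it had 1213, 1197 and 835 CPM in duodenum, jejunum and ileum, and 283 and 244 in colon and rectum, so that the lowest small intestinal value was 2.95-fold above the highest large intestinal one. A gap of at least 2-fold with at least 50 UMIs was found for no other of the 97 members that could be read in this class in either direction, while 6.71% of all 11416 genes passed it with the small intestine above the large and 7.23% with the large above the small. Ndufaf7 passed with the large intestine higher over UMIs without mt- genes (2.04-fold) and with at most 20% mitochondrial UMIs (2.07-fold), and had a gap of 1.97-fold otherwise. In crypt-like cells the values were 1215, 1277, 1090, 644 and 513 CPM, a gap of 1.69-fold. Goblet-like cells did not share the pattern, with 715, 915, 787, 820 and 705 CPM. In B-like cells it was 315, 355, 342, 341 and 341. In immune cells as a whole colon and rectum were the highest, with 579 and 585 CPM against 392 to 471. Over all 5 libraries it was called neither in epithelial against immune cells (log2 fold change 0.65, edgeR adjusted p 0.23) nor in absorptive-like against crypt-like cells (0.01, adjusted p 0.99). Without the rectum the first was called (1.11, adjusted p 0.035).

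No member passed the 2-fold rule in crypt-like, goblet-like or B-like cells. The shares of all genes that did were 2.76% and 3.66% in crypt-like (small above large, then large above small), 2.36% and 2.79% in goblet-like, and 1.26% and 0.13% in B-like cells. Over all barcodes Cox4i2, the isoform of subunit 4 known from lung and from cells that sense low oxygen, passed with 9, 1, 5, 17 and 51 UMIs (0.139, 0.0226, 0.121, 0.320 and 1.16 CPM, a gap of 2.31-fold), where 4.26% and 6.56% of all genes passed. Most members were even: the highest segment was above the lowest by a median of 1.26-fold in B-like, 1.36-fold in crypt-like, and 1.60-fold in absorptive-like and in goblet-like cells. Ndufaf6 had the widest range in absorptive-like cells, 8.26, 5.57, 4.14, 16.7 and 1.47 CPM, but its rectal value is 3 UMIs. Cox7a1 had the widest in crypt-like cells, with the ileum lowest. In goblet-like cells it was highest in the rectum (34.7, 49.9, 48.5, 66.8 and 109 CPM).

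Plasma-like cells were compared with B-like cells, where the scaling decided the direction. With TMM factors 61 of 82 nuclear encoded members rose and 1 fell, and 6 of 13 mitochondrially encoded members rose, while scaled to library totals without mt- genes 3 nuclear encoded members rose and 67 fell, and 0 mitochondrially encoded members rose and 12 fell. Between these scalings the median log2 fold change of all 8472 genes moved from -0.02 to -1.36. Among all genes, 28.7% rose and 27.9% fell with TMM factors, and with library totals without mt- genes 563 rose and 6861 fell. With immunoglobulin genes left out of the totals as well, a setting chosen after seeing the data, 64 nuclear encoded members rose and 1 fell. The median of the nuclear encoded members moved alongside, from 0.58 to -0.75, and was above that of all genes, a distance that a change of scaling leaves nearly as it is. By edgeR with TMM factors, 34 of 46 complex I, 14 of 17 complex V, 9 of 11 complex IV and 4 of 8 complex III members rose.

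Some members were higher in plasma-like cells even as CPM of all UMIs, with antibody transcripts counted. Ndufa1, an accessory subunit of complex I, had 214, 262, 267, 297 and 304 CPM in plasma-like and 89.0, 112, 125, 99.6 and 106 in B-like cells, with no overlap, and a log2 fold change of 2.63 with TMM factors (SE 0.13, edgeR adjusted p 2.8e-08). Ndufa4 had 401, 453, 569, 773 and 675 CPM against 315 to 355, and rose by 2.01. Ndufs5 of complex I followed with 1.64. These 3 are the members that also rose with library totals without mt- genes, by 1.30, 0.68 and 0.31 (adjusted p 1.6e-06, 0.0010 and 0.048). mt-Co1 shows the other case: it had 3473 to 5217 CPM in plasma-like and 7330 to 9320 in B-like cells, at 0.34 with TMM factors and -0.99 with library totals. Cox7a2l fell by 0.97 (adjusted p 0.00012), with 40.8 to 66.9 CPM against 246 to 310.

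Stromal cells were set against immune cells over the 4 libraries with at least 20 stromal barcodes (54, 31, 183 and 292 in duodenum, ileum, colon and rectum). With TMM factors 3 of 84 nuclear encoded members rose and 40 fell, and 9 of 13 mitochondrially encoded members fell, whereas with library totals without mt- genes 23 and 1 rose and none fell. The median of all 12178 genes moved from -0.09 to 0.61 between these scalings. Among all genes 28.4% rose and 31.5% fell with TMM factors, and with library totals without mt- genes 5655 rose and 1810 fell. Without the duodenum 26 nuclear encoded members fell, and without the ileum 5 rose. The median of the nuclear encoded members moved with it from -0.38 to 0.30, below that of all genes. Cytosolic ribosome genes, with 0 of 83 higher and 80 lower under TMM factors, moved further.

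Cox6b2, a complex IV isoform known from testis, was the exception. It had 57.3, 39.4, 49.8 and 55.8 CPM in stromal cells and 2.27, 1.39, 2.72 and 0.983 in immune cells of the same libraries, without overlap. The log2 fold change was 4.2 (SE 0.27, edgeR adjusted p 2e-07). The 4 stromal parts outside the barcodes left out all held it: 46.3 CPM in the part led by Stmn2, Edil3 and Cxcl13, 54.2 in the smooth muscle part, 38.5 in the part led by Pcolce2, Apod and Inmt, and 84.5 in the part led by Procr, Sox6, Ednrb and Bmp3. In these parts 24.3 to 38.1% of barcodes had a Cox6b2 UMI, at median depths of 6689.5 to 8450.5 UMIs, against 0.72% of plasma-like barcodes at 28053. Crypt-like cells had 9.76, 5.58, 6.93, 16.0 and 4.82 CPM and absorptive-like cells 0.602, 0.488, 0.129, 1.62 and 0.978, a fall of 3.08 on the log2 scale (SE 0.36, adjusted p 0.00057). The rise of Ndufa11 by 0.39 (adjusted p 0.047) was lost whenever a library was left out. Cox5a of complex IV fell by 1.23 with TMM factors and was at -0.56 (adjusted p 0.054) with library totals without mt- genes.

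**Figure D4:**
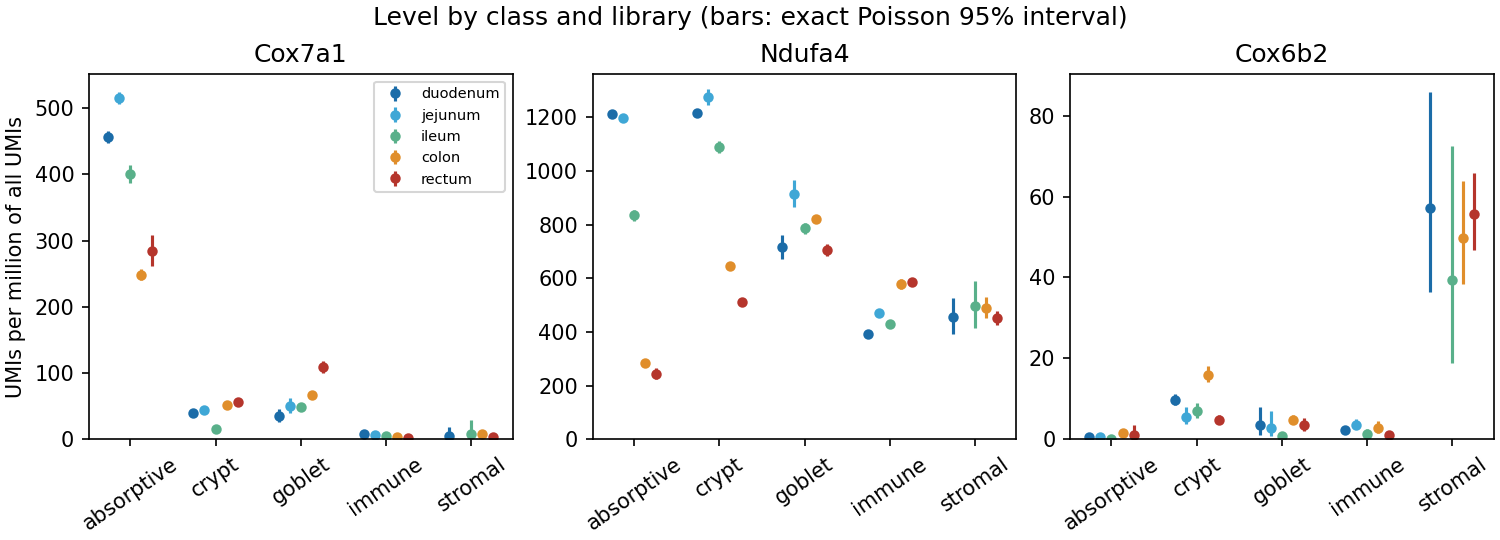
Level of Cox7a1, Ndufa4 and Cox6b2 (CPM of all UMIs) by class and library, with exact Poisson 95% intervals for counting error. Cox7a1 is at 248 to 516 in absorptive-like cells and at most 109 in the other classes shown, Ndufa4 separates small from large intestine in absorptive-like and crypt-like cells, and Cox6b2 is at 39.4 to 57.3 in stromal cells.

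The rarest isoforms sat in few barcodes. Cox6a2, the muscle form of subunit 6a, had 354 UMIs in 76 barcodes, of which 208 lay in 23 of 476 dendritic-like barcodes. In that class the libraries held 38, 80, 58 and 27 UMIs in duodenum, jejunum, ileum and rectum. Of the 27 barcodes with at least 2 Cox6a2 UMIs, 26 also had a UMI of Siglech, a surface lectin on the dendritic marker list, against 2 of 49 barcodes with 1 Cox6a2 UMI and 52 of 15243 with none. The 24 Cox6a2 UMIs of absorptive-like cells lay in 24 barcodes, 1 in each. In immune cells as a whole its level was 2.95, 9.47, 11.2, 1.02 and 3.93 CPM and in epithelial cells 0.588, 0.146, 0, 0.0222 and 0.124, a fitted log2 fold change of -5.23 for epithelial cells (SE 0.94, edgeR adjusted p 0.0026). At such low counts that fit depends on single libraries: it was -6.32 without duodenum and -4.55 without ileum.

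Cox8b and Ndufa4l2 shared 1 place. Cox8b, the muscle form of subunit 8, had 53 UMIs, of which 36 lay in 15 of the 152 barcodes of the stromal part led by Pcolce2, Apod and Inmt, and 15 in goblet-like barcodes. Ndufa4l2, a relative of Ndufa4 known as induced by low oxygen, had 48 UMIs, 28 of them in 17 barcodes of the same part and 15 in plasma-like barcodes with 1 UMI each. Cox4i2 had 83 UMIs, with 28 in 16 of the 118 barcodes of the part led by Procr, Sox6, Ednrb and Bmp3, at 30.7 CPM, 17 in the part led by Stmn2, and 11 in crypt-like cells. Cox7b2 had 2 UMIs, both in crypt-like barcodes. For Cox8c, 0 of 247743323 UMIs were found, where the limit of a count of 0 is 3 UMIs in all libraries together.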

How the data were processed

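UMI counts, whole numbers without normalization, were deposited as 1 matrix of genes and barcodes for each of 5 libraries, made with Cell Ranger 7.2.0 per the file headers. Cell Ranger 4.0.0, Seurat and mm10 are given in the submitters' processing notes. How reads shared by near-identical gene copies were counted is not given in the sources used here. Spatial libraries were not analysed here.

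Barcodes with at least 300 genes were kept without a mitochondrial limit. They were clustered in Scanpy 1.11.5 (Python 3.11.15) without the members: 2000 variable genes, 30 components, 15 neighbours, Leiden resolution 1.0, no batch correction. A cluster was named from at least 3 markers, each raised at least 1.5-fold and found in at least 10% of its barcodes. Doublets were kept in the main analysis. Scrublet's own threshold marked 115 barcodes, and the alternative removed 388. Classes needed 20 barcodes in a library.

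Shares carry exact binomial (Clopper-Pearson) and levels exact Poisson 95% intervals. PCR duplicates are collapsed by UMI, so these cover counting error only. Sums per class and library were tested with edgeR 4.0.16 in R 4.3.3 (quasi-likelihood, TMM factors, filterByExpr, library as a term, Benjamini-Hochberg over all genes, threshold 0.05). The script was checked on simulated counts. DESeq2 1.42.0 was an alternative. Nothing says that the libraries come from separate animals, so p-values measure only the spread between these libraries, differences between segments included. Segments were compared by a rule of size, the lowest library of one side 2-fold above the highest of the other. Named were all mt- genes, the isoform sets, the highest and lowest subunit of each complex, up to 8 called members per direction and contrast changed the same way in every library, and the 5 widest ranges between segments. The lists' genes named, the motifs, the windows shown, the stromal parts, the 64 barcodes left out, the naming thresholds and the immunoglobulin totals were chosen after values were seen. The members and lists were chosen with earlier results of these data known. The result of 1 member is not reported here.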

Additional observations from a re-analysis of the deposited data

Results flagged for a closer look

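With TMM factors, Ndufa4 had opposite signs in the small and large intestine. Against immune cells the epithelial cells had a mean log2 difference of 1.45 in duodenum, jejunum and ileum and of -0.60 in colon and rectum, 2.06 apart. In absorptive-like against crypt-like cells the means were 0.49 and -0.72, 1.21 apart. In each contrast all 3 small intestinal libraries were above 0 and both large intestinal ones below, but in the second the sign in the small intestine depends on the scaling. As CPM of all UMIs absorptive-like cells were not higher in any of the 3 (1213 against 1215, 1197 against 1277 and 835 against 1090), and over UMIs without mt- genes the ileum was lower (958 against 1251). The difference between small and large intestine was not tested, here or in the next paragraph.

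In plasma-like against B-like cells with TMM factors, Ndufs1 was lower in the small and higher in the large intestine (small minus large -0.83), and Atp5l had the reverse sign with a difference of 0.088. With library totals without mt- genes, which turn the direction of most members in this contrast, Ndufs1 was at -1.20 over the 5 libraries. In stromal against immune cells, where the small intestine is duodenum and ileum, Ndufb6, Ndufb9 and Ndufb10 were higher in the small and lower in the large intestine (0.64, 0.29 and 0.31), again with TMM factors. Uqcr10, Cox7c, Cox6c, Ndufaf7 and Ndufv1 had the reverse sign (-0.68, -0.55, -0.49, -0.78 and -0.35).

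The barcodes under 300 genes, which entered no comparison, held mostly mitochondrial transcripts. There were 177, 158, 303, 200 and 378 of them, with median UMIs of 3084, 3214, 2254, 2466 and 1071. The mitochondrially encoded genes took 89.1%, 93.9%, 86.5%, 90.2% and 76.9% of their UMIs, far above the libraries' own shares of 7.77 to 15.2%.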

How the results depend on the processing

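The limits are these. Each segment is 1 library, the number of animals is unknown, and classes rest on rebuilt cluster names that differ in make-up between segments. Over the alternatives 305 of 620 single class shares moved beyond their counting interval. For the order of classes, 68 of 70 counts of libraries stayed within 1.5 times. That rule is looser and passes a fall from 5 of 5 to 4 of 5 libraries, so the 2 figures cannot show which value is firmer. The order absorptive-like above crypt-like (nuclear encoded share) held in 4 of 5 libraries at Leiden resolutions 0.5 and 2. Crypt-like above goblet-like (mitochondrial share) held in 4 of 5 at resolution 2, with members kept in the clustering, and with doublets removed. T-like cells were above B-like cells in mitochondrial share in 0 libraries with at most 20% mitochondrial UMIs and with doublets removed. Of 2286 alternative values of single named genes, members and list genes together, 2050 kept direction and call, 119 lost the call, 34 gained one and 83 changed sign. Why values moved was not tested. Genes under about 50 UMIs in a class are limited by depth.

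Both sides of each contrast come from the same libraries and were compared within them by the library term. Without that term 76, 50, 60 and 2 nuclear encoded members were higher and 1, 8, 1 and 38 lower in epithelial, absorptive-like, plasma-like and stromal cells. The labels number no replicates within a segment.

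With every deposited barcode kept the mitochondrial share was 15%, 16.1%, 11.2%, 14.7% and 8.58% and the nuclear encoded share 4.01%, 3.87%, 3.09%, 4.15% and 2.78%. With at least 1000 genes they were 13.8%, 14.7%, 9.2%, 13.2% and 7.1%, and 4.09%, 3.95%, 3.17%, 4.25% and 2.83%. At most 20% mitochondrial UMIs gave 9.88%, 9.91%, 6.97%, 10.4% and 6.59%, and 4.27%, 4.21%, 3.24%, 4.31% and 2.84%. Removal of doublets gave 14.3%, 15.3%, 9.77%, 14% and 7.74%, and 4.06%, 3.93%, 3.15%, 4.22% and 2.84%. Means over barcodes were 15.4%, 18.3%, 12.3%, 15.9% and 11%, and 2.58%, 2.79%, 2.47%, 3.1% and 2.27%. The nuclear encoded share was 4.72%, 4.61%, 3.49%, 4.87% and 3.04% of UMIs without mt- genes and 4.01%, 3.89%, 3.12%, 4.16% and 2.78% of all UMIs for structural subunits alone.

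Among rules of size, a 1.5-fold gap gave 2 members higher in the large intestine over all barcodes, 2 in absorptive-like and 1 in goblet-like cells, and 1 higher in the small intestine in crypt-like cells. In absorptive-like cells, UMIs without mt- genes and at most 20% mitochondrial UMIs each gave 1, Ndufaf7, higher in the large intestine. With library totals without mt- genes, absorptive-like against crypt-like cells had 21 nuclear encoded members higher. Plasma-like against B-like cells then had 3 higher and 67 lower, 0 and 12 mitochondrially encoded, and medians of -0.75 and -0.97. Stromal against immune cells had 23 higher and 0 lower, 1 and 0 mitochondrially encoded, and medians of 0.30 and 0.03. Of all genes, 2537, 563 and 5655 were higher under this scaling in the contrasts in this order, and 4748, 6861 and 1810 lower. Without a filter on low counts 2 nuclear encoded members were lower in epithelial, 3 lower in plasma-like and 5 higher in stromal cells. At Leiden resolution 2, 32 were higher in absorptive-like cells and 10 mitochondrially encoded ones in plasma-like cells. With 1 library left out, 2 to 5 were higher and 26 to 33 lower in stromal cells.

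Single members whose log2 fold change changed sign are given with the value under the setting. Absorptive-like against crypt-like, at most 20% mitochondrial UMIs: Cox7a2l (0.048). Absorptive-like against crypt-like, DESeq2: Ndufa4 (-0.048) and Atp5g1 (-0.027). Absorptive-like against crypt-like, DESeq2 size factors in edgeR: Ndufa4 (-0.048) and Atp5g1 (-0.027). Absorptive-like against crypt-like, library totals without mt- genes: Ndufa4 (-0.38), Atp5g1 (-0.36), Ndufs1 (-0.019) and Uqcrc2 (-0.10). Absorptive-like against crypt-like, no filter on low counts: Ndufa4 (-0.022) and Atp5g1 (-0.0022). Absorptive-like against crypt-like, Leiden resolution 2: Ndufa4 (-0.16) and Atp5g1 (-0.19). Plasma-like against B-like, library totals without mt- genes: mt-Nd1 (-0.59), mt-Nd2 (-1.02), mt-Co1 (-0.99), mt-Co2 (-1.02), mt-Atp8 (-0.97), mt-Atp6 (-1.19), mt-Co3 (-0.97), mt-Nd3 (-0.18), mt-Nd4l (-0.55), mt-Nd4 (-0.74), mt-Nd5 (-1.20), mt-Nd6 (-1.33), mt-Cytb (-0.75), Cox4i1 (-0.91), Cox6a1 (-0.42), Cox6b1 (-0.84), Cox7a2 (-0.57), Cox7b (-0.94), Atp5g1 (-0.16), Atp5g2 (-1.29), Atp5g3 (-0.46), Ndufs1 (-1.20), Uqcrc2 (-0.97), Atp5b (-0.88), Ndufb6 (-0.063) and Ndufb8 (-0.10). Plasma-like against B-like, no filter on low counts: mt-Atp6 (-0.0087), mt-Nd5 (-0.016), mt-Nd6 (-0.12) and Atp5g2 (-0.10). Plasma-like against B-like, Leiden resolution 2: Cox8a (0.052) and Atp5g2 (-0.087). Plasma-like against B-like, library totals without mt- and immunoglobulin genes: Cox8a (0.045). Stromal against immune, library totals without mt- genes: mt-Nd2 (0.18), mt-Atp8 (0.48), mt-Nd3 (0.13), mt-Nd4l (0.66), mt-Nd4 (0.22), mt-Nd6 (0.034), mt-Cytb (0.30), Cox4i1 (0.18), Cox7a1 (0.67), Cox7a2 (0.066), Cox7a2l (0.13), Cox7b (0.25), Cox8a (0.23), Ndufs1 (0.50) and Atp5b (0.34). Stromal against immune, no library term: mt-Nd4l (0.011). Stromal against immune, at most 20% mitochondrial UMIs: mt-Nd4l (0.10). Stromal against immune, doublets removed: mt-Nd4l (0.11) and Cox7a1 (0.23). Stromal against immune, Leiden resolution 2: mt-Nd4l (0.0045).

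With each library left out in turn, sign changes left these ranges. Epithelial against immune: Cox7a2l -0.028 to 0.19. Absorptive-like against crypt-like: Ndufa4 -0.17 to 0.16 and Atp5g1 -0.054 to 0.068. Plasma-like against B-like: mt-Atp6 -0.029 to 0.28, mt-Nd5 -0.0033 to 0.25, mt-Nd6 -0.11 to 0.12, Atp5g2 -0.0039 to 0.067 and Ndufs1 -0.022 to 0.25. Stromal against immune: mt-Nd4l -0.082 to 0.075 and Cox7a1 -0.35 to 0.23.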
